A study of Mus musculus with 10 samples.

Results

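The nuclear genes of oxidative phosphorylation were followed from a no Notch control through 3 early T cell stages made in culture. They were taken as every gene row whose symbol begins Ndufa, Ndufb, Ndufc, Ndufs, Ndufv, Uqcr, Cox4i, Cox5, Cox6, Cox7, Cox8 or Atp5, with *Sdha*, *Sdhb*, *Sdhc* and *Sdhd*, which gave 92 of 24062 gene rows. The rule uses symbols only and no measured value, although the genes were chosen with earlier results of these data known. Of the 92 genes, 36 were assigned to complex I, 7 to the assembly of complex I, 4 to complex II, 8 to complex III, 19 to complex IV, 1 to supercomplexes and 15 to complex V, and 2 carry an Atp5 symbol without being subunits of the enzyme.

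RNA was sequenced from 10 libraries of cells grown from marrow progenitors (LSK, Lin- SCA1+ KIT+) of C57BL/6J mice with the growth factors SCF, FLT-3 ligand, IL-6 and IL-11. The 4 IgG libraries (D1, D2, R1 and R2) are the no Notch control, harvested at day 14 from immobilized human IgG, and the letters are not explained in the sources used here. DN1 (KIT++ CD44+ CD25-), DN2a (KIT++ CD44+ CD25+) and DN2b (KIT+ CD44lo CD25+) cells, with 2 libraries each, were sorted from cultures on a high density of the Notch ligand Delta1. IL-7 was added at day 14 to the cultures that gave DN2a and DN2b and not to those that gave DN1, so stage and IL-7 cannot be told apart. The DN cells were sorted and no sort is described for the IgG cultures, so Notch ligand and sort cannot be told apart. Labels of the DN libraries carry a year and those of the IgG libraries do not, so a difference in date could not be checked. The LSK isolates are described as independent, and the DN stages as isolated from each of them. Within a DN stage, the libraries are given in the order of replicates 1 and 2, numbered by the year of their label, and the IgG libraries in the order D1, D2, R1 and R2.

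Oxidative phosphorylation passes electrons from NADH (complex I) and succinate (complex II) through complex III to oxygen at complex IV, and complex V, the ATP synthase, uses the proton gradient built on the way. Most subunits are encoded in the nucleus, and the mitochondrial genome encodes a few core subunits of complexes I, III, IV and V. Several subunits of complex IV exist as a widely expressed form and as a form known from muscle, lung or testis. In early thymocytes, proliferation is known to be accompanied by metabolic activity that draws on both glycolysis and mitochondria.

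Reads on gene rows numbered from 12354635 to 35367925 per library, and 88 of the 92 genes had at least 1 CPM in at least 2 libraries and could be tested. Levels are given as CPM (counts scaled to a common library size) on library sizes scaled by TMM, a scaling that sets most genes to no change. Markers of the cells differed between the cultures. The summed level of 8 neutrophil markers lay between 21070.0 and 71957 CPM in the IgG libraries, between 78.8 and 2492 in DN1, and at 20.9 or less in DN2a and DN2b, where 5 of the 8 were at 3 counts or fewer in each library. Summed CPM of 7 monocyte and macrophage markers ranged from 7697 to 16362 in IgG and from 13.2 to 257 in the DN libraries. The 8 DN stage markers summed to between 405 and 626 CPM in IgG, 803 and 817 in DN1, 2001 and 2429 for DN2a, and 2669 and 3065 for DN2b. Of the 8, 7 were called higher and 1 lower in DN1 and in DN2a, and 6 higher and 1 lower in DN2b. Mast cell and basophil markers (6) summed to between 34.6 and 179 CPM in IgG, 459 and 1566 in DN1, 381 and 581 for DN2a, and 260.0 and 461 for DN2b, with 4 of the 6 called higher and 1 lower in DN1, but 1 higher and 3 lower in DN2a and 1 higher and 4 lower in DN2b, so that most members went against the sum there. The 6 erythroid and megakaryocyte markers summed to between 228 and 949.6 CPM in IgG, 123 and 436 in DN1, 118 and 140.5 for DN2a, and 17.7 and 25.4 for DN2b, while of the 4 that could be tested 2 were called higher and 1 lower in DN1, 1 higher and 1 lower for DN2a, and 0 higher and 1 lower for DN2b. Markers of B cells (4) and of NK and innate lymphoid cells (4) summed to at most 4.54 and 7.35 CPM in any library. Comparisons with IgG are thus between cultures that differ in these markers, and in bulk RNA fewer cells of a type and less RNA per cell cannot be told apart. The control libraries also differed among themselves. IgG D2, which had the highest neutrophil sum, was the highest of the 4 in 61 of the 88 genes tested (69.3%, against 33.2% of all genes tested). IgG R2 was the lowest in 58 of the 88, for which the share over all genes was not counted. The part of the marker differences in the results was not tested.

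The promoters of these genes share a sequence feature that the rule did not use. RefSeq promoter windows of 300 bases (250 before the start and 50 after it, GRCm38.p6) were matched for 76 of the 92 genes, giving 82 windows. The ratio of observed to expected CpG had a median of 0.83 in these windows and of 0.38 in the 32851 windows of all genes. A ratio of at least 0.6 was reached by 69 of the 82 (84.1%), against 35.8% of all windows. Among the exceptions were 4 tissue forms of complex IV subunits, *Cox8b*, *Cox7a1*, *Cox6b2* and *Cox7b2*, with ratios of 0.115, 0.333, 0.432 and 0.564. Of the other exceptions, *Cox7b*, *Ndufc2*, *Ndufb2* and *Atp5j2* (0.368, 0.482, 0.520 and 0.584) were called in every DN stage over IgG. *Ndufb7*, *Ndufs8*, *Ndufa3*, *Sdhb* and *Ndufb11* (0.521, 0.532, 0.558, 0.571 and 0.596) were called in none. To show examples from both ends of this range, the 120 bases before the start are printed 5′ to 3′ on the strand of the gene with each CpG in capitals, for *Cox7c* and *Ndufaf2*, which were higher in every DN stage than in IgG, for *Cox6a1*, which was called in none, and for the muscle forms *Cox7a1* and *Cox8b*.
Cox7c: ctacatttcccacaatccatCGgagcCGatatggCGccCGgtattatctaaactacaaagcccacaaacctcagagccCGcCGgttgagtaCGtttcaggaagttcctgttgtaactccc
Ndufaf2: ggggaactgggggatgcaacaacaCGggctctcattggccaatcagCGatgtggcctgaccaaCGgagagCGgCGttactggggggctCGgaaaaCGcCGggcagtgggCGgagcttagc
Cox6a1: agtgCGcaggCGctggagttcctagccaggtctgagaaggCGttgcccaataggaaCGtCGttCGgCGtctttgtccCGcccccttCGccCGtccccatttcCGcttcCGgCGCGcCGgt
Cox7a1: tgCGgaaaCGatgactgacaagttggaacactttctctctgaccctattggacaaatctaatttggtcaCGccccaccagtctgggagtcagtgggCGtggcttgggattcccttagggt
Cox8b: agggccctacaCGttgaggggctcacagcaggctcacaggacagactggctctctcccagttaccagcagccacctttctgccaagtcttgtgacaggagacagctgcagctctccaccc
The stretches lie at chr13:86046796-86046915 (minus strand), chr13:108158626-108158745 (minus), chr5:115348959-115349078 (minus), chr7:30184051-30184170 (plus) and chr7:140900447-140900566 (minus) of GRCm38.p6. They hold 7, 9, 15, 4 and 1 CpG in that order. *Cox7c* and *Cox6a1* both have CpG-rich promoters, with window ratios of 0.823 and 1.08, although only the first was called in the DN stages.

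Cores of 3 motifs known from promoters of respiratory genes were counted on both strands of the windows, allowing overlaps between motifs. The core TGCGCA of NRF-1 was in 24.4% of the windows of these genes and 7.76% of all windows, the ETS core CCGGAAG in 20.7% and 8.86%, and the YY1 core ATGGCGG in 17.1% and 4.05%. Among windows with a CpG ratio of at least 0.6, the shares were 29.0% against 16.3%, 20.3% against 18.7%, and 20.3% against 8.99%. The promoter of *Cox6a1* holds both an NRF-1 core and an ETS core in the printed stretch, and none of the 3 cores is in the printed stretches of the other 4 genes. Genes called in at least 1 DN stage over IgG and genes called in none had median CpG ratios of 0.87 and 0.80 over 40 windows each, and the NRF-1 core was in 20% and 30% of their windows, the ETS core in 17.5% and 25%, and the YY1 core in 20% and 15%. A match is only a match of letters.

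**Figure D1:**
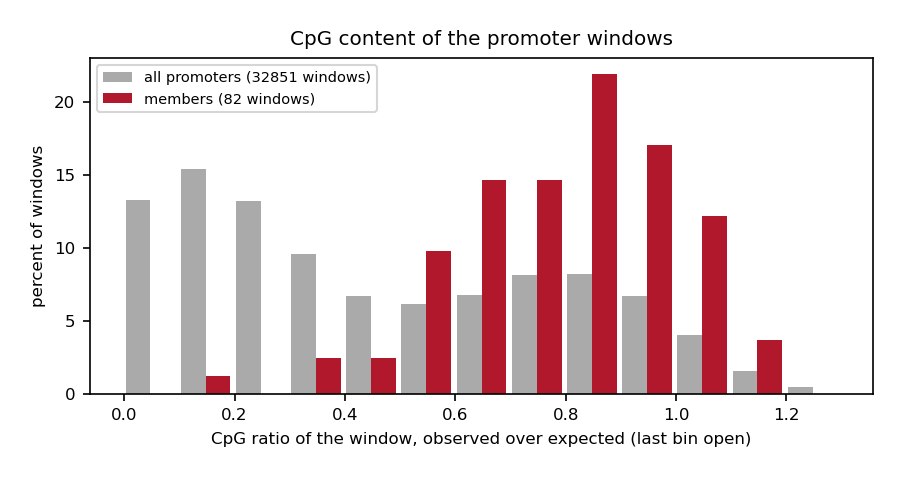
Percent of promoter windows (vertical axis) in bins of 0.1 of the ratio of observed to expected CpG (horizontal axis, last bin open), for all 32851 windows in grey and the 82 windows of the oxidative phosphorylation genes in red. The red bars lie mostly at 0.6 and above, where 84.1% of them fall.

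The first question was whether the respiratory genes as a group had other levels in cells that had received a Notch signal than in the control. They held 1.17%, 1.39%, 1.15% and 1.21% of all gene reads in the IgG libraries, 1.95% and 1.92% in DN1, 2.16% and 2.10% for DN2a, and 2.22% and 2.08% for DN2b. Every DN library lay above every IgG library, and DN1 lay below DN2a and DN2b. The same held within each complex taken alone for the DN libraries against IgG. On TMM-scaled sizes the gap is smaller. The summed level was 10950 to 16158 CPM in IgG, 16371 to 17652 in DN1, 21264 to 21668 in DN2a and 20469 to 22760 in DN2b, and of the 5 complexes only complex V then kept all DN libraries above all IgG libraries. IgG D2 overlapped DN1 in complexes I, III and IV, and IgG D1 overlapped DN1 and DN2b in complex II.

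**Figure D2:**
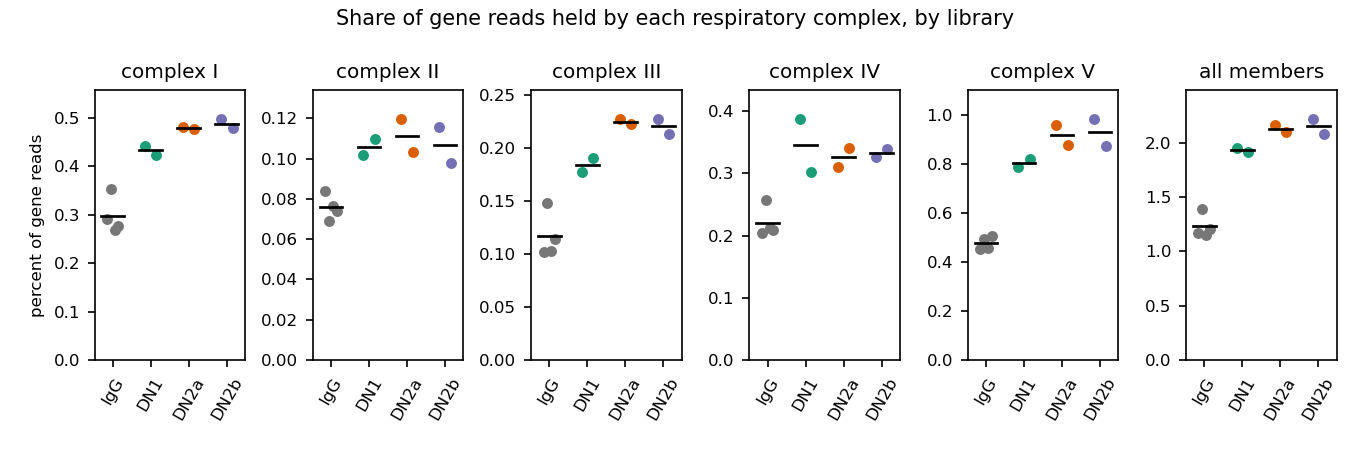
Percent of all gene reads (vertical axes, each from 0) held by complexes I to V and by all 92 genes, with 1 point per library and a bar at the group mean. Each DN library lies above all 4 IgG libraries in each panel, and in all members DN1 lies at 1.92% and 1.95%, below the DN2a and DN2b libraries.

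Gene by gene, 15 of the 88 were higher in DN1 than in IgG at an adjusted p under 0.05 (17.0%), where 14.3% of all 12221 genes tested were called higher, so the share in DN1 was near the background. In DN2a, 44 were higher (50%, background 21.2%), and in DN2b, 42 were higher (47.7%, background 19.9%). None was called lower in any of the 3, where 17% of all genes were lower in DN1, 24.3% in DN2a and 22.5% in DN2b. At an unadjusted p under 0.05, 1 gene (*Cox6a2*) was lower in DN1, 0 in DN2a and 0 in DN2b, against 22.8%, 28.7% and 27.4% of all genes. The calls rest on the quasi-likelihood test of edgeR, adjusted by Benjamini-Hochberg for the 12221 genes, and the 3 comparisons share the 4 control libraries. Median log2 fold changes (log2FC) of the 88 were 0.40, 0.68 and 0.73 in DN1, DN2a and DN2b, against 0.01, -0.05 and -0.05 over all genes tested. The log2FC was above 0 in 76, 79 and 81 of the 88, against 50.5%, 48.5% and 48.7% of all genes. Both DN libraries lay above all 4 IgG libraries in 36, 57 and 57 of the 88, where the backgrounds were 23.5%, 30.6% and 28.2%, and below them in 2, 1 and 2, where the backgrounds were 25.5%, 32.5% and 30.8%. Higher in all 3 stages were 14 genes (background 11.3%), higher in both DN2a and DN2b 40 (17.3%), and called in no stage 42 (47.3%).

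These counts moved with the control libraries. Without IgG D2 they were 23 higher and 1 lower (*Cox6a2*) in DN1, 58 higher in DN2a and 55 higher in DN2b, and without IgG R1 4, 34 and 29. Against D1 and D2 alone, 4, 19 and 17 were higher, and against R1 and R2 alone, 27, 58 and 60, with *Cox6a2* lower in DN1. Leaving out a DN library also lowered them, to 8 and 4 in DN1 without replicate 1 or 2, to 16 and 21 in DN2a, and to 9 and 31 in DN2b. The DN1 count also moved with the scaling, to 44 higher with scaling to library size alone, under which the median of all genes in DN1 lay at 0.27. Shares of all genes called under these settings are not given here, and calls over all genes may have moved as well.

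**Figure D3:**
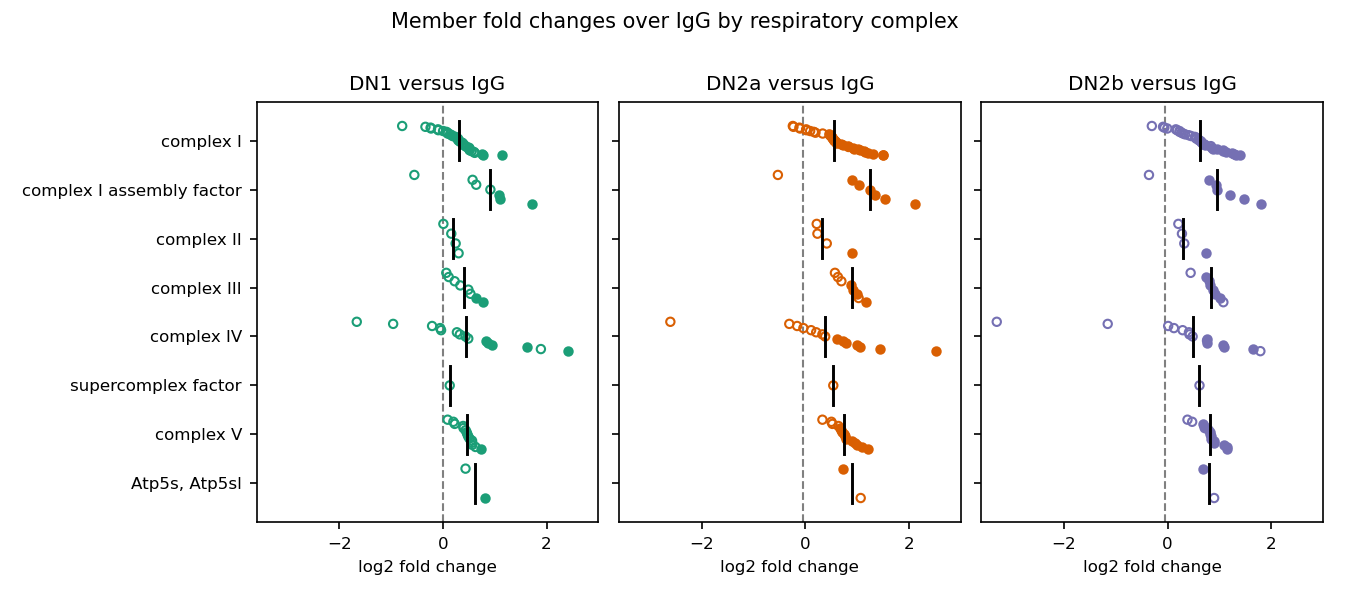
Log2FC over IgG (horizontal axis) of the 88 tested genes in DN1, DN2a and DN2b, by complex. Filled points passed an adjusted p of 0.05, open points did not, black bars are medians and the dashed line is the median of all genes tested, and filled points are seen at higher levels only, 15, 44 and 42 in the 3 panels.

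Complex I, which takes electrons from NADH, had 3 of its 36 genes called higher in DN1, 14 in DN2a and 13 in DN2b. These are 8.33%, 38.9% and 36.1% of its genes, where 14.3%, 21.2% and 19.9% of all genes tested were higher, so its share in DN1 was below the background. Among the nuclear subunits of its catalytic core, *Ndufs1*, *Ndufv1* and *Ndufv2* were called in DN2a and DN2b and not in DN1. *Ndufv1* had 105, 121, 92.5 and 97.1 CPM in the IgG libraries, 134 and 162 in DN1, 236 and 219 for DN2a and 221 and 156 for DN2b. It encodes the subunit that binds NADH, and all 6 DN libraries lay above all IgG libraries. Its log2FC was 0.51 ± 0.21 (SE, adjusted p = 0.095) in DN1, 1.13 ± 0.21 (SE, adjusted p = 0.0027) for DN2a and 0.86 ± 0.21 (SE, adjusted p = 0.0105) for DN2b. The level of *Ndufv2* was 143, 145, 93.4 and 89.3 CPM in IgG, then 159 and 201 (DN1), 278 and 244 (DN2a) and 278 and 233 (DN2b), again with no overlap between the DN and IgG libraries. The core subunits *Ndufs3* and *Ndufs7* had log2FC of 0.55 and -0.01 in DN2b and did not pass. For *Ndufs3*, 44.9% of the 36-base windows of its transcripts also occur in other genes, so its count is uncertain.

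Among the accessory subunits of complex I, *Ndufc2*, *Ndufb2* and *Ndufab1* were called higher in every stage. For *Ndufc2*, the IgG libraries had 67.2, 79.2, 60.3 and 57.7 CPM and those of the DN1, DN2a and DN2b stages 104 and 119, 150.04 and 156, and 168 and 164. This membrane arm subunit lay above all IgG libraries in all 6 DN libraries, with a log2FC of 0.75 ± 0.19 (SE, adjusted p = 0.0166) in DN1, 1.21 ± 0.19 (SE, adjusted p = 0.00127) for DN2a and 1.33 ± 0.19 (SE, adjusted p = 0.000857) for DN2b. *Ndufb2* had 33.1, 46.3, 32.2 and 26.9 CPM in the IgG libraries, 73.5 and 79.5 in DN1, 103 and 92.4 for DN2a and 109 and 74.0 for DN2b. The DN libraries again stood clear of IgG, and the log2FC was 1.14 ± 0.25 (SE, adjusted p = 0.00916) in DN1, 1.497 ± 0.25 (SE, adjusted p = 0.00164) for DN2a and 1.402 ± 0.25 (SE, adjusted p = 0.00238) for DN2b. Its exons overlap *Braf* and 2 other genes, so reads cannot be assigned with certainty. *Ndufab1*, the mitochondrial acyl carrier protein, which also serves fatty acid and lipoic acid synthesis, was the third gene called in all 3 stages. The level of *Ndufab1* was 62.2, 41.5, 46.9 and 50.1 CPM in IgG, then 75.5 and 95.7 (DN1), 124 and 123 (DN2a) and 125 and 112 (DN2b). Some other accessory subunits passed in DN2a, DN2b or both but not in DN1, such as *Ndufa9* (log2FC 1.07 in DN2b), and others passed in no stage. For *Ndufb8*, the IgG libraries had 208, 222, 143 and 117 CPM and those of the DN1, DN2a and DN2b stages 132 and 213, 271 and 239, and 254 and 169.8, which by CPM per kilobase of transcript was the highest of complex I (289.5 over all libraries). DN1 and DN2b overlapped IgG and DN2a lay above it, and its adjusted p was 0.997, 0.175 and 0.474 in DN1, DN2a and DN2b. *Ndufv3* had 91.0, 223, 93.1 and 75.3 CPM in the IgG libraries, 75.3 and 64.5 in DN1, 69.7 and 136 for DN2a and 85.9 and 141 for DN2b. IgG D2 was the highest library and DN1 replicate 2 the lowest, and no stage passed. *Ndufb7* and *Ndufa8*, with log2FC of -0.24 and -0.10 in DN2a, also did not pass. The lowest level belonged to *Ndufs5* at 2.14 CPM per kilobase. It had no counts in IgG D1 and D2 and between 0.239 and 2.40 CPM in the other 8 libraries, and 26.2% of its windows occur elsewhere.

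Of the groups with more than 2 genes, the factors that assemble complex I had the largest share of calls in each stage. Of the 7 Ndufaf genes, 3 were higher in DN1 and 6 in both DN2a and DN2b (42.9%, 85.7% and 85.7%, against 14.3%, 21.2% and 19.9% of all genes tested), and their median log2FC was 0.92, 1.26 and 0.95. The level of *Ndufaf2* was 10.2, 6.68, 6.51 and 6.25 CPM in IgG, then 23.2 and 25.3 (DN1), 37.0 and 27.3 (DN2a) and 32.8 and 18.7 (DN2b). This assembly factor was lower in every IgG library than in any DN library, and its log2FC was 1.71 ± 0.31 (SE, adjusted p = 0.00397) in DN1, 2.12 ± 0.31 (SE, adjusted p = 0.00092) for DN2a and 1.80 ± 0.31 (SE, adjusted p = 0.00203) for DN2b. For *Ndufaf1*, the IgG libraries had 17.5, 19.2, 11.4 and 11.5 CPM and those of the DN1, DN2a and DN2b stages 23.8 and 40.6, 49.95 and 36.5, and 49.1 and 33.3. The groups did not overlap, and the log2FC was 1.11 ± 0.33 (SE, adjusted p = 0.0307) in DN1, 1.54 ± 0.33 (SE, adjusted p = 0.00514) for DN2a and 1.47 ± 0.33 (SE, adjusted p = 0.00693) for DN2b, although in DN1 it was 0.68 (adjusted p = 0.259) without replicate 2. *Ndufaf4* had 21.2, 13.5, 16.5 and 23.6 CPM in the IgG libraries, 31.5 and 48.0 in DN1, 58.0 and 36.5 for DN2a and 54.2 and 32.4 for DN2b, which also put all DN libraries above IgG. Replicate 1 was above replicate 2 in DN2a and DN2b for each of these 3 genes. The exception was *Ndufaf3*. The level of *Ndufaf3* was 23.7, 34.5, 22.9 and 20.8 CPM in IgG, then 20.6 and 14.2 (DN1), 17.9 and 17.4 (DN2a) and 20.7 and 18.9 (DN2b). All DN libraries lay below all IgG libraries, yet its log2FC of -0.55, -0.53 and -0.36 did not pass (adjusted p = 0.166, 0.153 and 0.322).

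**Figure D4:**
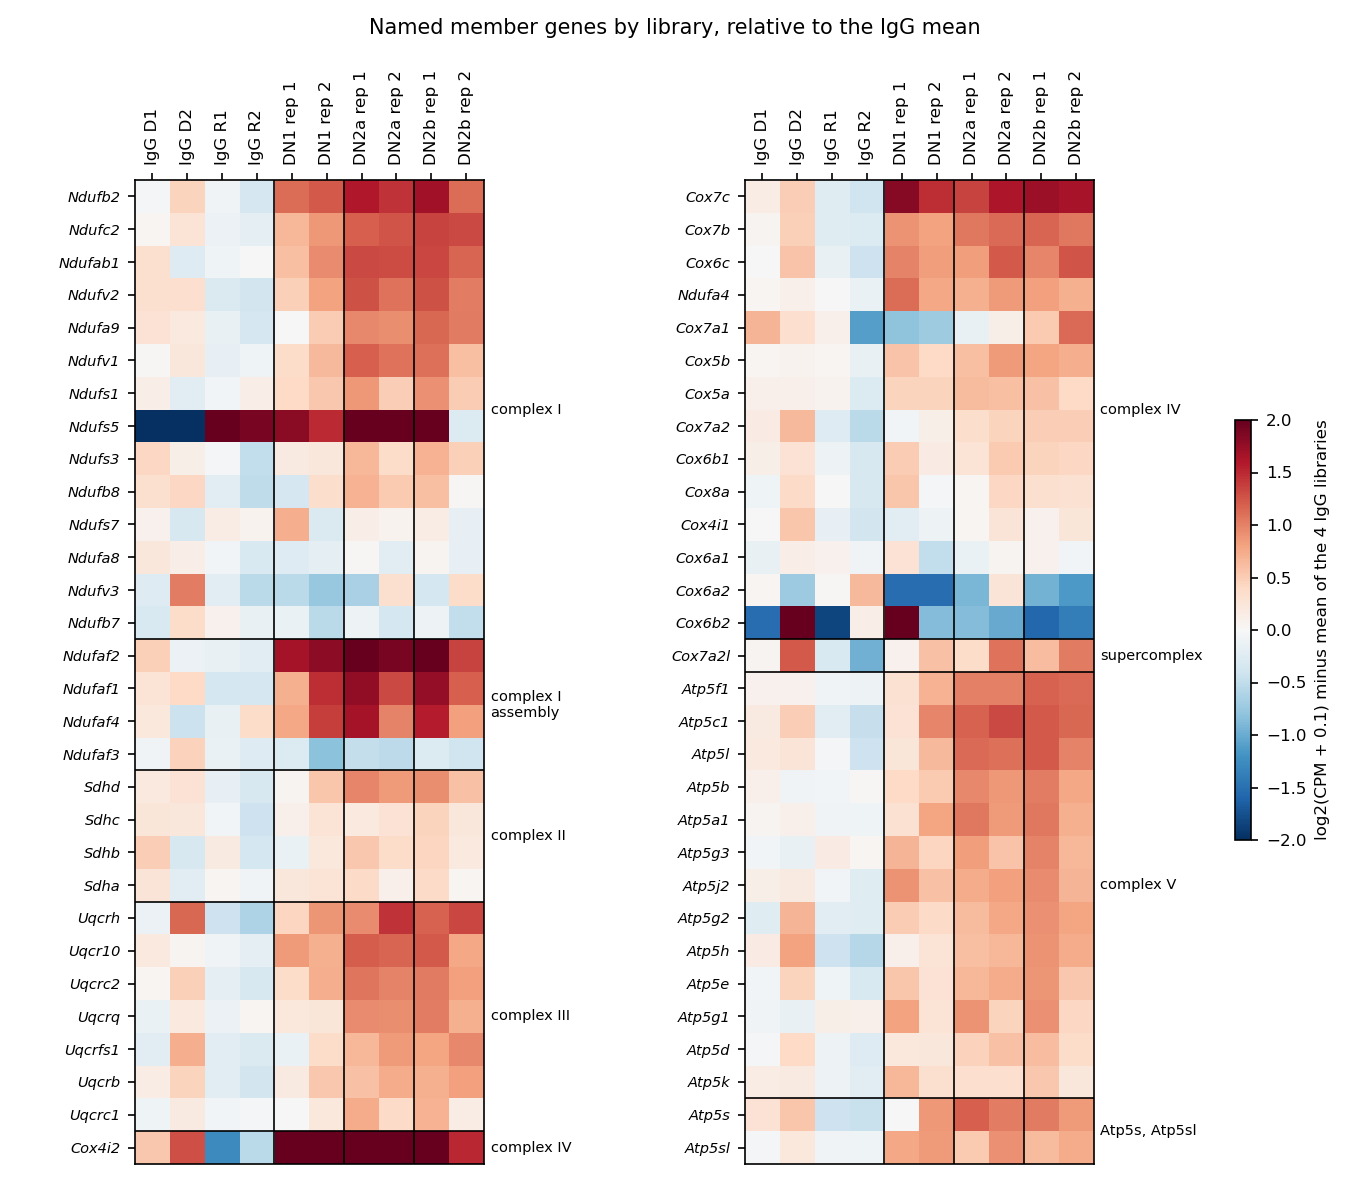
Level of the tested genes that the text names (rows, grouped by complex) in the 10 libraries (columns), as log2(CPM + 0.1) minus the mean of the 4 IgG libraries, with colours cut at 2 in both directions. Red is above and blue below the IgG mean, and *Cox7c* and *Ndufaf2* are red in all 6 DN libraries while *Cox6a1* stays near white.

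Complex II, succinate dehydrogenase, is the one complex with no mitochondrially encoded subunit and also an enzyme of the tricarboxylic acid cycle. Only *Sdhd*, a membrane anchor, was called, in DN2a and DN2b, and 1 of 4 genes (25%) is near the 21.2% and 19.9% of all genes tested. For *Sdhd*, the IgG libraries had 243, 259.8, 191 and 171 CPM and those of the DN1, DN2a and DN2b stages 221 and 312, 418 and 384, and 405 and 319. The DN2a and DN2b libraries lay above all IgG libraries, while DN1 overlapped them, and the log2FC was 0.30 ± 0.25 (SE, adjusted p = 0.386) in DN1, 0.89 ± 0.25 (SE, adjusted p = 0.0164) for DN2a and 0.75 ± 0.25 (SE, adjusted p = 0.0363) for DN2b. *Sdha* had 328, 235, 283 and 262 CPM in the IgG libraries, 323 and 334 in DN1, 357 and 294 for DN2a and 358 and 281 for DN2b. These groups overlapped, and the flavoprotein had a log2FC of 0.25, 0.23 and 0.21 without passing. *Sdhb* and *Sdhc*, the iron-sulfur subunit and the other anchor, had log2FC between 0.01 and 0.41 and did not pass either.

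In complex III, which passes electrons from ubiquinol to cytochrome c, 2 of 8 genes were higher in DN1, 4 in DN2a and 5 in DN2b (25%, 50% and 62.5%, where all genes gave 14.3%, 21.2% and 19.9%). The level of *Uqcr10* was 98.8, 90.2, 81.8 and 76.3 CPM in IgG, then 156 and 141 (DN1), 199 and 193 (DN2a) and 202 and 147 (DN2b). The DN libraries did not overlap IgG, and the log2FC was 0.77 ± 0.20 (SE, adjusted p = 0.018) in DN1, 1.18 ± 0.20 (SE, adjusted p = 0.00176) for DN2a and 1.01 ± 0.20 (SE, adjusted p = 0.00392) for DN2b. For *Uqcrq*, the IgG libraries had 108, 135, 109 and 121 CPM and those of the DN1, DN2a and DN2b stages 137 and 139.5, 226 and 225, and 239.8 and 193. Here DN1 lay just above the highest IgG library, and DN2a and DN2b stood clear of both, with a log2FC of 0.23 ± 0.19 (SE, adjusted p = 0.391) in DN1, 0.93 ± 0.19 (SE, adjusted p = 0.00389) for DN2a and 0.87 ± 0.19 (SE, adjusted p = 0.00563) for DN2b. The core protein *Uqcrc2* was called in DN2a and DN2b (log2FC 0.998 and 0.91), and its partner *Uqcrc1* was not (0.57 and 0.44). *Uqcrh* had 172, 413, 139.6 and 121 CPM in the IgG libraries, 250.4 and 343 in DN1, 357 and 505 for DN2a and 419 and 471 for DN2b. This hinge protein was the highest of the complex by CPM per kilobase (584), and its log2FC of 1.03 and 1.08 in DN2a and DN2b did not pass, and IgG D2 (413 CPM) lay above both DN1 libraries and 1 of the DN2a libraries and below both DN2b libraries (adjusted p = 0.0907 and 0.0823). The level of *Uqcrfs1* was 131, 249.7, 129 and 123 CPM in IgG, then 137 and 194 (DN1), 239 and 273 (DN2a) and 259.7 and 294 (DN2b). The Rieske iron-sulfur protein thus had the same high value in IgG D2 and did not pass in any stage. *Cox7a2l*, a factor of supercomplexes of complexes III and IV, had 270.4, 611, 211 and 134 CPM in the IgG libraries and from 276.7 to 553 in the DN libraries, with D2 the highest of all 10.

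Complex IV, cytochrome c oxidase, was uneven. Of its 15 tested genes, 5 were higher in DN1, 7 in DN2a and 5 in DN2b (33.3%, 46.7% and 33.3%, with backgrounds of 14.3%, 21.2% and 19.9%). For *Cox7c*, the IgG libraries had 36.6, 46.6, 28.0 and 25.1 CPM and those of the DN1, DN2a and DN2b stages 117 and 92.7, 84.2 and 102, and 109 and 104. The lowest DN library had 84.2 CPM and the highest IgG library 46.6, and the log2FC was 1.62 ± 0.26 (SE, adjusted p = 0.00247) in DN1, 1.45 ± 0.26 (SE, adjusted p = 0.00236) for DN2a and 1.64 ± 0.26 (SE, adjusted p = 0.00142) for DN2b. It is a short subunit, and 54.3% of its 36-base windows occur in other genes, so its level is uncertain. *Cox7b* and *Cox6c*, 2 other small subunits of the membrane part, were also called in all 3 stages, with log2FC of 1.08 and 1.08 in DN2b. *Ndufa4* had 159, 166, 155 and 142 CPM in the IgG libraries, 336 and 266 in DN1, 254 and 279 for DN2a and 273 and 254 for DN2b. *Ndufa4*, once counted with complex I and now known as a subunit of complex IV, had a log2FC of 0.95 ± 0.18 (SE, adjusted p = 0.00547) in DN1, 0.78 ± 0.19 (SE, adjusted p = 0.00858) for DN2a and 0.76 ± 0.19 (SE, adjusted p = 0.0102) for DN2b, and the groups did not overlap. *Cox5b* was called in DN2a and DN2b and *Cox5a* in DN2a, with log2FC of 0.73 and 0.61 there.

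Other widely expressed subunits of complex IV were not called. The level of *Cox4i1* was 497, 733, 445 and 386 CPM in IgG, then 425 and 466 (DN1), 516 and 598 (DN2a) and 529.9 and 591 (DN2b). Each stage overlapped IgG, while DN2a and DN2b lay above DN1, and the log2FC over IgG was -0.21 ± 0.28 (SE, adjusted p = 0.599) in DN1, 0.11 ± 0.28 (SE, adjusted p = 0.761) for DN2a and 0.12 ± 0.28 (SE, adjusted p = 0.738) for DN2b. For *Cox6a1*, the IgG libraries had 211, 257, 248 and 223 CPM and those of the DN1, DN2a and DN2b stages 285 and 167, 213 and 244, and 248 and 225. The values of all 10 libraries lay between 166.7 and 285 CPM, and the log2FC was -0.05 ± 0.24 (SE, adjusted p = 0.885) in DN1, -0.04 ± 0.24 (SE, adjusted p = 0.912) for DN2a and 0.01 ± 0.24 (SE, adjusted p = 0.976) for DN2b. None of *Cox4i1*, *Cox6a1*, *Cox6b1*, *Cox7a2* and *Cox8a* was called in any stage, with log2FC between -0.21 and 0.42. By contrast, 4, 6 and 5 of *Cox5a*, *Cox5b*, *Cox6c*, *Cox7b*, *Cox7c* and *Ndufa4* were called in DN1, DN2a and DN2b. Of all genes tested, 14.3%, 21.2% and 19.9% were called higher there. These 2 sets were formed after the values were seen and were not tested against each other. Of the reads of complex IV, the first set held between 60.2% and 63.8% of the reads in the IgG libraries and between 48.7% and 51.4% in the DN libraries. The share of *Cox7c* was 1.27% to 1.56% in IgG and 2.75% to 3.59% in the DN libraries, and that of *Cox4i1* was 20.2% to 24.5% in IgG and 13.1% to 17.7% in the DN libraries. These shares follow from the choice of the sets and genes and are a description only.

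Most tissue isoforms of complex IV had few reads. *Cox8c*, a testis form, had 0 counts in all 10 libraries, and *Cox8b* and *Cox7b2*, the muscle form and the testis form, had at most 3 counts in any library. The limit of 3 counts corresponds to between 0.0880 and 0.239 CPM by library. *Ndufa4l2*, a relative of *Ndufa4* known to respond to hypoxia, had at most 0.461 CPM and was not tested. *Cox4i2* had 0.560, 1.01, 0.0880 and 0.213 CPM in the IgG libraries, 2.48 and 2.44 in DN1, 2.65 and 2.67 for DN2a and 2.001 and 1.19 for DN2b. This lung form was at 1.01 CPM or less in IgG and at 1.19 or more in each DN library. Its log2FC was 2.41 ± 0.80 (SE, adjusted p = 0.0473) in DN1, 2.52 ± 0.81 (SE, adjusted p = 0.0295) for DN2a and 1.79 ± 0.82 (SE, adjusted p = 0.104) for DN2b, and the call in DN1 was lost in most fits that left out 1 library (adjusted p up to 0.123). Per kilobase it was the lowest tested gene of the complex (2.10), against 687 for *Cox4i1*, and its share of the reads of this pair was 0.08% ± 0.05 (SD, n = 4) in IgG, and in the 3 DN stages, with n = 2, 0.55% ± 0.04 (DN1), 0.48% ± 0.05 (DN2a) and 0.29% ± 0.12 (DN2b). The level of *Cox6a2* was 4.48, 2.58, 4.43 and 6.86 CPM in IgG, then 1.45 and 1.44 (DN1), 2.25 and 5.20 (DN2a) and 2.20 and 1.91 (DN2b). The muscle form was lower in both DN1 and both DN2b libraries than in all IgG libraries and overlapped IgG in DN2a, with a log2FC of -1.66, -0.31 and -1.16 that did not pass, although in DN1 it passed with DESeq2, without IgG D2 and against R1 and R2 alone, and its exon overlaps *Itgad* on the other strand.

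For *Cox6b2*, the IgG libraries had 0.280, 10.1, 0.205 and 1.10 CPM and those of the DN1, DN2a and DN2b stages 21.2 and 0.498, 0.501 and 0.445, and 0.267 and 0.318. The testis form was high in DN1 replicate 1 and IgG D2 only, where it made up 5.81% and 3.31% of the reads of *Cox6b1* and *Cox6b2*, and at most 0.57% elsewhere. No stage passed (adjusted p = 0.361, 0.271 and 0.204). The mast cell and basophil sum (1566 and 179 CPM) and the neutrophil sum (2492 and 71957 CPM) were also the highest of their group in these libraries, while the erythroid and megakaryocyte sum (436 and 276 CPM) and the monocyte and macrophage sum (257 and 11862 CPM) were the highest of the group in DN1 replicate 1 and not in IgG D2, and the part of such cells in the value was not tested. *Cox7a1* had 2.24, 1.75, 1.47 and 0.579 CPM in the IgG libraries, 0.741 and 0.797 in DN1, 1.22 and 1.48 for DN2a and 2.001 and 3.10 for DN2b. Each stage of this muscle form overlapped IgG, while both DN2a libraries lay above both DN1 libraries and both DN2b libraries above those of DN2a, and the log2FC in DN2b against DN1 was 1.72 ± 0.74 (SE, adjusted p = 0.347).

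**Figure D5:**
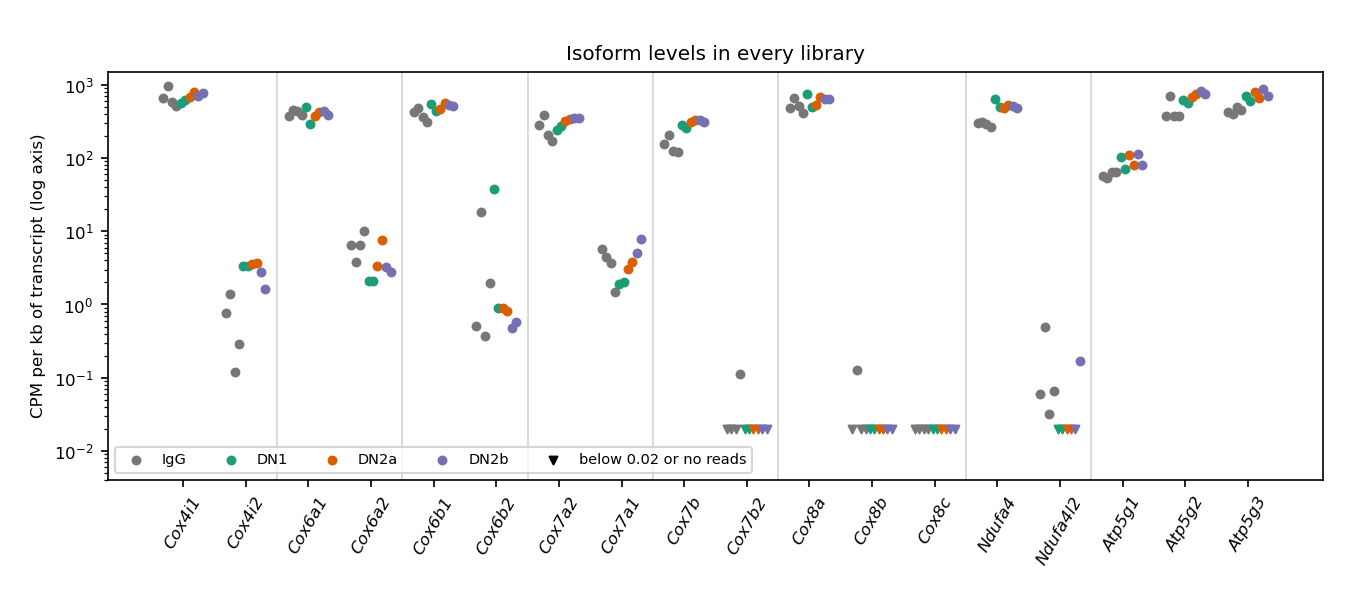
CPM per kilobase of transcript (log axis) of the members of the isoform sets in each of the 10 libraries, grey for IgG and coloured for the DN stages, with triangles for values below 0.02 or without reads. The widely expressed forms lie far above the tissue forms, and *Cox6b2* is high in DN1 replicate 1 and IgG D2 only.

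Complex V, the ATP synthase, had most of its genes called in the DN2 stages. One of its 15 genes, *Atp5j2*, was called higher in DN1 and 11 were called in both DN2a and DN2b, with a median log2FC of 0.47, 0.74 and 0.81. The share was 6.67% in DN1, below the 14.3% of all genes tested, and 73.3% in DN2a and DN2b, where 21.2% and 19.9% of all genes were called. All 15 had a log2FC above 0 in all 3 stages. The level of *Atp5b* was 1281, 1146, 1156 and 1219 CPM in IgG, then 1579.6 and 1717 (DN1), 2335 and 2181 (DN2a) and 2434 and 2042 (DN2b). The catalytic beta subunit was the highest of the complex by CPM per kilobase (892), every DN library lay above every IgG library, and the log2FC was 0.46 ± 0.22 (SE, adjusted p = 0.143) in DN1, 0.91 ± 0.22 (SE, adjusted p = 0.00868) for DN2a and 0.90 ± 0.22 (SE, adjusted p = 0.0102) for DN2b. For *Atp5a1*, the IgG libraries had 1085, 1126, 995 and 992 CPM and those of the DN1, DN2a and DN2b stages 1289.8 and 1819, 2169 and 1897, and 2166 and 1716. Its alpha subunit showed the same order of groups, with a log2FC of 0.57 ± 0.24 (SE, adjusted p = 0.105) in DN1, 0.95 ± 0.24 (SE, adjusted p = 0.0113) for DN2a and 0.89 ± 0.24 (SE, adjusted p = 0.0169) for DN2b. *Atp5c1*, the gamma subunit of the central stalk, had a log2FC of 1.20 and 1.14 in DN2a and DN2b, and *Atp5e* one of 0.67 and 0.69. *Atp5d*, the delta subunit, was the only gene of the head and central stalk that was not called (0.50 and 0.47).

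Of the 4 genes of the peripheral stalk, 0 were called in DN1 (background 14.3%) and 3 in both DN2a and DN2b (backgrounds 21.2% and 19.9%). *Atp5f1* had 368, 366, 329 and 323 CPM in the IgG libraries, 427 and 562 in DN1, 697 and 692 for DN2a and 782 and 754 for DN2b. The b subunit separated all groups from IgG, with a log2FC of 0.51 ± 0.20 (SE, adjusted p = 0.0824) in DN1, 1.004 ± 0.20 (SE, adjusted p = 0.00397) for DN2a and 1.15 ± 0.20 (SE, adjusted p = 0.00223) for DN2b. *Atp5h*, the d subunit, did not pass, with IgG D2 at 389 CPM above 5 of the 6 DN libraries, and 46.5% of its windows occur in other genes. Among the small membrane subunits, *Atp5l* had a log2FC of 1.10 in DN2b with 69.4% of its windows shared, and *Atp5k* had 0.38 and did not pass. The c ring is encoded by 3 genes that give the same mature protein. The level of *Atp5g3* was 306, 288, 356 and 327 CPM in IgG, then 513 and 430.4 (DN1), 568 and 472 (DN2a) and 631 and 504 (DN2b). For *Atp5g2*, the IgG libraries had 218, 414, 223 and 217 CPM and those of the DN1, DN2a and DN2b stages 366 and 336, 397 and 438, and 482 and 447. *Atp5g1* had 152, 144, 172 and 170.3 CPM in the IgG libraries, 279 and 193 in DN1, 295 and 217 for DN2a and 300.4 and 213 for DN2b. *Atp5g1* and *Atp5g3* were called in DN2a and DN2b, and *Atp5g2* was not (adjusted p = 0.0517 in DN2b). In DN2b, *Atp5g1* passed at an adjusted p of 0.045 and was lost in most alternatives. Their shares of the c ring reads differed little between the group means, with *Atp5g1* at 21.5%, 22.1%, 21.3% and 19.8% in IgG, DN1, DN2a and DN2b, *Atp5g2* at 35.3%, 33.3%, 35.2% and 36.2%, and *Atp5g3* at 43.2%, 44.6%, 43.5% and 44.0%. The largest SD of these shares was 9.16% (n = 4), that of *Atp5g2* in IgG, where D2 was at 48.9% and the other controls at 32.2% or less. *Atp5g2* shares 87.6% of its windows with other genes. *Atp5sl*, which is not a subunit, was called in all 3 stages with a log2FC of 0.81, 0.73 and 0.69, and *Atp5s* was not called.

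Between the complexes, the share of the reads of these genes that fell on complex V was 35.7% to 41.9% in IgG, 40.3% to 42.8% in DN1, 41.8% to 44.4% in DN2a and 42.1% to 44.4% in DN2b. Complex I held 22.9% to 25.4% in IgG and 22.2% to 23.0% in the DN libraries, complex IV 17.3% to 18.5% in IgG and 14.4% to 19.9% in the DN libraries, complex III 8.68% to 10.7% and 9.08% to 10.6%, and complex II 4.98% to 7.17% and 4.69% to 5.73%. The share of complex V in DN2b lay above all IgG libraries, and those of complex I in DN1 and DN2a and of complex IV in DN2a and DN2b lay below them, while the other ranges overlapped IgG.

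The next question was whether the genes changed between the DN stages. None of the 88 was called in DN2a against DN1, in DN2b against DN2a or in DN2b against DN1, where 0.196%, 0% and 1.01% of all genes tested were called higher by the quasi-likelihood test of edgeR. At an unadjusted p under 0.05, 4, 0 and 7 were higher, where the backgrounds were 3.38%, 1.7% and 5.43%, and 0, 0 and 1 (*Cox6b2*) were lower, where the backgrounds were 7.49%, 1.04% and 8.43%, and DESeq2 called 1, 0 and 2, *Uqcrq* in both and *Atp5f1* in DN2b against DN1, all higher. The median log2FC was 0.31 in DN2a against DN1, 0.02 in DN2b against DN2a and 0.30 in DN2b against DN1, with 78, 50 and 80 of 88 above 0, against 47.2%, 48% and 47.8% of all genes. Both libraries of the later stage lay above both of the earlier in 55, 14 and 42 genes, where the backgrounds were 20.9%, 14.6% and 20.6%. With scaling to library size alone, the medians against DN1 fell to 0.11 and 0.10, while the medians of all genes moved to -0.22 and -0.21. Of single genes, *Uqcrq* had the smallest adjusted p against DN1, with a log2FC of 0.70 ± 0.22 (SE, adjusted p = 0.274) in DN2a and 0.65 ± 0.22 (SE, adjusted p = 0.212) in DN2b. *Ndufa9*, an accessory subunit of complex I, had one of 0.81 ± 0.28 (SE, adjusted p = 0.22) in DN2b. All 8 genes of complex III had both DN2a libraries above both DN1 libraries, and 22 of 36 in complex I, 11 of 15 in complex V and 8 of 15 in complex IV did. Replicate 1 of DN2b was the highest of all 10 libraries in 36 of the 88 genes (40.9%, against 8.02% of all genes tested), and without it the median was -0.11 in DN2b against DN2a and 0.15 in DN2b against DN1.

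Genes outside the symbol rule that serve the same pathway were counted in lists of their own. No gene row of the files begins with a symbol of the mitochondrially encoded subunits, so these subunits were not analysed here. Of 34 tested assembly factors of other names, 4 were higher in DN1, 12 in DN2a and 9 in DN2b (11.8%, 35.3% and 26.5%, against 14.3%, 21.2% and 19.9% of all genes tested), and 0 were lower. *Tmem70*, needed to assemble the ATP synthase, had 35.7, 27.5, 32.7 and 32.9 CPM in the IgG libraries and 85.8 and 81.9 in DN2b, with a log2FC of 1.38 ± 0.20 (SE, adjusted p = 0.001). *Sco2*, a copper chaperone of complex IV, was listed at 0 in all 4 IgG libraries and in DN1 replicate 1. In the other 5 libraries it had 6.98 to 11.4 CPM. This split runs within DN1 and does not follow stage, so no fold change is read from it, and its cause was not tested. Of 12 tested genes of cytochrome c and carriers, 1, 6 and 3 were higher in DN1, DN2a and DN2b (8.33%, 50% and 25%, against the same backgrounds), led by *Slc25a5*, an exchanger of ADP and ATP, with a log2FC of 1.43 in DN2b, and *Usmg5*, a subunit of the ATP synthase dimer, with 1.19.

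The mitochondrial ribosome, which makes the mitochondrially encoded subunits, had 23 of 77 genes higher in DN1, 51 in DN2a and 37 in DN2b (29.9%, 66.2% and 48.1%, against 14.3%, 21.2% and 19.9% of all genes tested), with 1 lower in DN2a, where 24.3% of all genes were lower. *Mrps6* and *Mrpl24* had the largest log2FC of those called in DN2b, 2.18 and 1.74. Of 18 genes of the tricarboxylic acid cycle, 4, 8 and 8 were higher (22.2%, 44.4% and 44.4%, against the same backgrounds), *Suclg1* and *Pdha1* with a log2FC of 1.25 and 1.25 in DN2b, and *Dlst* was lower there (-0.50, adjusted p = 0.0424). The 20 tested regulators of mitochondrial genes split, with 4 higher and 2 lower in DN1, 5 against 4 for DN2a, and 5 against 3 for DN2b, all near the shares of all genes called higher (14.3%, 21.2% and 19.9%) and below those called lower (17%, 24.3% and 22.5%). *Tfam*, which packages and transcribes mitochondrial DNA, had 35.5, 56.2, 32.0 and 42.7 CPM in the IgG libraries and 129 and 119 in DN2b, a log2FC of 1.58 ± 0.23 (SE, adjusted p = 0.00101), and *Tfb1m*, a methyltransferase of mitochondrial ribosomal RNA, had one of 1.32. *Ppard*, a nuclear receptor of fatty acid oxidation, and *Polg*, the polymerase of mitochondrial DNA, were lower, with -2.27 and -1.60. *Nrf1*, which encodes NRF-1, had a log2FC of 0.00 (adjusted p = 0.995), and *Gabpa*, an ETS factor, one of 0.43 (adjusted p = 0.101). None of these lists had a gene called in any comparison between DN stages.

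Counts of several of these genes are uncertain for technical reasons that the files do not resolve. In 15 of the 92 genes, over 20% of the 36-base windows also occur in transcripts of other genes, led by *Atp5g2*, *Atp5l*, *Cox7c* and *Uqcrb*, and reads of more than 1 place were not assigned. Exons of 25 genes overlap another gene, and the strand setting of the counting is not given in the sources used here. Of the 46 genes called in at least 1 DN stage and the 42 called in none, 8 and 7 had over 20% of shared windows, and their median transcript lengths were 1040 and 744 bases.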

How the data were processed

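RNA-seq counts of 10 libraries were used. The authors aligned 36 bases of read 1 to mm10 with TopHat2 (2.12), counted reads per gene with htseq-count 0.6.1p1 (intersection-strict) and deposited raw counts per gene symbol with 5 summary rows. The annotation and strand setting of the counting are not given in the sources used here. The summary rows, 20.5% to 41.0% of the tallied reads, were dropped. The 12221 genes that reached 1 CPM in 2 or more libraries were fitted in 4 groups with edgeR 4.0.16 (quasi-likelihood test, TMM, R 4.3.3), with p-values adjusted by Benjamini-Hochberg for all of them and a threshold of 0.05. The common dispersion was 0.189. SE values were derived from the F statistics. The scripts were tested on simulated counts. CPM values use TMM-scaled sizes, and shares of gene reads use plain totals. Levels per kilobase use the median length of the principal transcripts of GENCODE vM21 (mm10), which is long for *Atp5g1*, *Ndufb2* and *Ndufab1*. Promoter windows are those of RefSeq on GRCm38.p6.

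Members and lists were chosen with earlier results of these data known. Named genes are those of the isoform sets, the 5 with the largest log2FC in each direction among those called in a comparison, the highest and lowest per kilobase of each complex, those at 3 counts or fewer, and for each other list the 2 called genes that moved most up and the 2 that moved most down. Further members, and *Nrf1* and *Gabpa*, were named after their values were seen. Alternatives were scaling to library size, upper quartile scaling, DESeq2 1.42.0, no filter, filterByExpr, only the groups compared, D1 with D2 or R1 with R2 as the only controls, leaving out each library, and a replicate block by label year. The same DN fit with no block was added after seeing the data. DN2a and DN2b share label dates and DN1 only the year. Deviations from the stage means correlated across 12221 genes at 0.07 (DN1 and DN2a), 0.22 (DN1 and DN2b) and 0.40 (DN2a and DN2b).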

Additional observations from a re-analysis of the deposited data

Results flagged for a closer look

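Among the 4 IgG libraries, 5 of the 30 genes tested for it and 0 of the 9 sums had 1 library set apart from the other 3 by a gap larger than Dixon's critical value, which chance gives in about 1 in 20 groups. IgG D2 stood above the others with 10.1 CPM of *Cox6b2*, 414 CPM of *Atp5g2*, 20.3 CPM of *Atp5sl* and 250 CPM of *Uqcrfs1*. IgG D1 stood above them with 10.2 CPM of *Ndufaf2*, where every DN library had 18.7 CPM or more.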

How the results depend on the processing

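The 15, 44 and 42 genes called higher over IgG in DN1, DN2a and DN2b kept a log2FC above 0 in all 18 alternatives. The 8 reversals were of genes that were not called, *Cox4i1* in DN2b against the controls D1 and D2 (log2FC -0.16), and *Cox6a1* in DN2b, which lay at -0.018 with DESeq2, -0.0125 without a filter, -0.00409 with the compared groups only, -0.0186 with D1 and D2, and between -0.060 and 0.0868 over the fits that left out each library. For DN1 over IgG, the 15 calls became 44 with library size scaling (median log2FC 0.68), 33 with upper quartile scaling, 23 with DESeq2, 7 with the compared groups only, 4 with D1 and D2 and 28 with R1 and R2. The 44 calls in DN2a became 19, and the 42 in DN2b 17, with D1 and D2. Shares of all genes called in the alternatives are not given here. Library size scaling moved the medians against DN1 to 0.11 in DN2a and 0.10 in DN2b, and DESeq2 called 1 and 2 genes there. Leaving out each library gave 4 to 24 calls in DN1, 16 to 58 in DN2a and 9 to 55 in DN2b, and medians of 0.30 to 0.50, 0.60 to 0.83 and 0.65 to 0.85. Between the DN stages it gave 0 calls, and medians of 0.28 to 0.39 in DN2a against DN1, -0.11 to 0.0913 in DN2b against DN2a and 0.15 to 0.41 in DN2b against DN1. Of the named genes' other results, 463 kept their direction and their side of the threshold, 41 no longer passed and 10 newly passed. With the replicate block, 0 genes were called in the 3 comparisons between DN stages, as without it. The cause of these changes was not tested, except that fewer libraries enter the fits that leave some out. With 2 libraries per stage, small differences between the DN stages may have been missed.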
